A study of Mus musculus with 6 samples.

Results

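The nuclear genes of the mitochondrial respiratory chain and ATP synthase were examined for open chromatin in blood monocytes of thrombocytopenic and control mice. Members were the autosomal protein-coding genes of the GRCm38 gene table whose symbol starts with Nduf, Uqcr, Sdh, Cox4, Cox5, Cox6, Cox7, Cox8 or Atp5, which gave 97 of 20665 autosomal protein-coding genes. The label speaks of subunits, but the symbols also take in the complex I assembly factors Ndufaf1 to Ndufaf8 and the complex II assembly factors Sdhaf1 to Sdhaf4. By complex, 45 members belonged to complex I, 8 to complex II, 8 to complex III, 19 to complex IV and 17 to complex V, with Ndufa4 and its relative Ndufa4l2 placed in complex IV. The series title speaks of histone modifications, but the sample labels describe ATAC-seq, an assay that maps accessible DNA by where a transposase can insert adapters. The DTR group held 3 libraries from PF4cre-iDTR mice, in which Cre driven by the promoter of the platelet gene Pf4 switches on a receptor for diphtheria toxin, and the WT group held 3 libraries from wild-type mice. Mice of both groups had received the toxin, so the toxin itself was common to them. The labels give no age and do not say whether a library came from 1 animal or a pool, so any p-value measures only the spread between these libraries.

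The respiratory chain carries electrons from NADH (through complex I) and succinate (through complex II) by way of ubiquinone, complex III and cytochrome c to oxygen at complex IV. The protons pumped on the way drive ATP synthase, complex V. The subunits encoded in the nucleus are needed in nearly every cell, and their promoters are textbook targets of NRF1, of the ETS factor GABP (also called NRF2) and of YY1. Some complex IV subunits have isoforms that are used mainly in heart and skeletal muscle, lung or testis.

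Promoter sequences set side by side a subunit gene that was open in every library and its closed tissue isoform, and show the motifs that members carried. RefSeq promoters of build GRCm38.p6, from 250 bases before to 50 bases after a start site, were found for 79 of the 97 members, with 84 start sites in all. Capitals mark exact matches on either strand to CCGGAAG (ETS factors including GABP), GCATGCGC (NRF1) or AAGATGGC (YY1). Each sequence is written 5′ to 3′ along its gene. Ndufs3 (chr2:90904672-90904971, minus strand), a core subunit gene of complex I, held ETS letters on both strands, and Ndufs7 (chr10:80249199-80249498, plus strand), another core subunit gene, held the YY1 letters. Ndufaf4 (chr4:24897833-24898132, plus strand) had the most NRF1 matches, 3, of which a pair overlaps because the letters are close to a palindrome. Uqcr10 (chr11:4704295-4704594, minus strand) is shown as the member with the smallest p for a difference between the groups and held none of these letters. Cox8a (chr19:7217567-7217866, minus strand), the broadly used isoform, had 2 ETS matches, while Cox8b (chr7:140900397-140900696, minus strand), the isoform of heart and skeletal muscle, had none.
Ndufs3: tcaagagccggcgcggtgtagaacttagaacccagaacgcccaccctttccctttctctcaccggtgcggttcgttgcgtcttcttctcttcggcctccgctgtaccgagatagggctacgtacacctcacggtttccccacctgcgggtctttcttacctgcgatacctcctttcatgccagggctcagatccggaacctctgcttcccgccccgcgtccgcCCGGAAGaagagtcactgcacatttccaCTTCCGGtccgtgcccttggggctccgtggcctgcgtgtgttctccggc
Ndufs7: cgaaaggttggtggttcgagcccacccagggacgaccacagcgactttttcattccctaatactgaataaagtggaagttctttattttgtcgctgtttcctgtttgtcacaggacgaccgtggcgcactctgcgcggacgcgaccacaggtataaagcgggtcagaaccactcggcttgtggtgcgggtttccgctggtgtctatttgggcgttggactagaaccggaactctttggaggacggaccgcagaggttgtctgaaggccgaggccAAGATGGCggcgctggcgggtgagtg
Ndufaf4: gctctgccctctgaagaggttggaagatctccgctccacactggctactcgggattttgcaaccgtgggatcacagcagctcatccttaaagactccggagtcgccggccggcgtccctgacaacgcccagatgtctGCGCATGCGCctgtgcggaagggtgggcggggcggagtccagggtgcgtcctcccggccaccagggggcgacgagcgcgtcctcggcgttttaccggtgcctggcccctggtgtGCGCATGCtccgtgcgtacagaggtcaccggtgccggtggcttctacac
Uqcr10: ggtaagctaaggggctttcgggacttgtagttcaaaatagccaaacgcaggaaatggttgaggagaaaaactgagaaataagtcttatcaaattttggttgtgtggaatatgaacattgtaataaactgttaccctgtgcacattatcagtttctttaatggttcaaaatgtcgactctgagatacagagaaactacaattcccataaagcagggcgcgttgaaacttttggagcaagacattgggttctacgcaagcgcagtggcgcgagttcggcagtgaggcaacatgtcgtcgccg
Cox8a: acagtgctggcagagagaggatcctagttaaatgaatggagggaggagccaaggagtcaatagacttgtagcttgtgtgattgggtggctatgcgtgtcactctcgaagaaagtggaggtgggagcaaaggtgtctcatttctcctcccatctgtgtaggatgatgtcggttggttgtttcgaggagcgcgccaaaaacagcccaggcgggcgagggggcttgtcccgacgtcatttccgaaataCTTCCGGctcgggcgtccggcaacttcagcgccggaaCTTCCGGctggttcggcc
Cox8b: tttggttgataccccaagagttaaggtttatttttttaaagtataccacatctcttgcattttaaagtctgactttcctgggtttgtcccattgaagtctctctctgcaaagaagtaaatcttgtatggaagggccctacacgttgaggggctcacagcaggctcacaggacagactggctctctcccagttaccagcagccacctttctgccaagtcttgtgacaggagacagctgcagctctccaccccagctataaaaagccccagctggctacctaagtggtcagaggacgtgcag
A start-site peak in all 6 libraries lay over the first 5 of these genes and over Cox8b in none. The Cox8a promoter held 19 CpG dinucleotides and the Cox8b promoter 2. A match describes letters and does not show that a factor was bound.

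The motif letters of known respiratory chain regulators were more frequent in the members' promoters than in promoters at large. The ETS letters stood in 22 of 84 promoters (26.2%), against 11.9% of 20085 promoters of autosomal protein-coding genes and 19.9% of the 10624 that had a start-site peak in all 6 libraries. For the NRF1 letters the shares were 14.3% (12 of 84), 3.55% and 5.78%, and for the YY1 letters 13.1% (11 of 84), 3.06% and 4.75%. At least 1 of these 3 motifs was found in 38 promoters (45.2%), against 17.1% of all and 27.9% of those with a peak. The letters AAGGTCA, read by the estrogen-related receptors, stood in 9.52% of the members' promoters, against 4.03% of all and 2.67% of those with a peak. The Sp and KLF letters GGGCGGG stood in 36.9%, less than the 50.9% of open promoters but slightly more than the 34.5% of all. The NF-Y letters CCAAT were nearly equal (40.5%, against 38.3% of open promoters and 38.1% of all). The CREB letters TGACGTCA were rare and also more frequent at the members (4.76%, against 3.56% of open promoters and 2.3% of all). TATAAA stood in 11.9%, against 12.7% of all and 6.14% of open promoters. Both strands were searched, and NRF1 matches may overlap each other. These shares are descriptions without a test, and a gene with 2 listed start sites enters once for each.

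**Figure D1:**
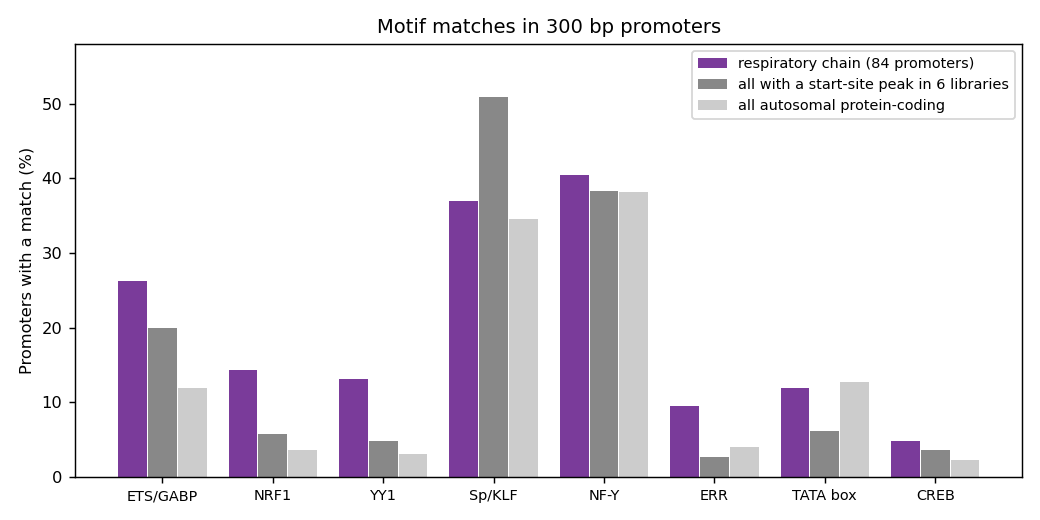
Share of promoters of 300 bp (y axis, percent) with at least 1 exact match to the letters of each factor (x axis), for the 84 promoters of the members, for all with a start-site peak in 6 libraries and for all promoters of autosomal protein-coding genes. The members' bars are the highest for ETS/GABP (26.2%), NRF1 (14.3%), YY1 (13.1%), ERR (9.52%), CREB (4.76%) and, by little, NF-Y (40.5%). They lie below open promoters for Sp/KLF (36.9% against 50.9%).

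Each peak list was read as covered length per gene, the number of base pairs under the authors' peaks within the gene body extended by 1 kb on each side. Of the 97 members, 91 (93.8%) had a peak in all 6 libraries, against 70.7% of all 20665 autosomal protein-coding genes. All 7 core subunit genes of complex I, all 8 members of complex II, all 8 of complex III and all 17 of complex V were among them. So were the 11 broadly used complex IV genes, Cox4i1, Cox5a, Cox5b, Cox6a1, Cox6b1, Cox6c, Cox7a2, Cox7a2l, Cox7c, Cox8a and Ndufa4. The 5 members without a peak in any library were Cox8b, the testis isoforms Cox7b2 and Cox8c, and Ndufb4b and Ndufb4c, both named for Ndufb4. The share of genes without any peak was 26.1% over the genome. Near-identical copies of a gene can lose reads that map to several places, so absence at Ndufb4b and Ndufb4c is uncertain, and with no read counts the depth behind any absent peak is unknown.

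Tissue isoforms of complex IV fell into open and closed loci. The 8 genes of that class had a peak in all 6 libraries in 4 cases, Cox4i2 (a lung isoform), Cox6b2 (a testis isoform), Cox7a1 (heart and skeletal muscle) and Ndufa4l2 (known for its induction in hypoxia). The windows of these 4 also reach other genes, in that order Bcl2l1, Fam71e2, Capns1, and Shmt2 with Stac3. No promoter was found for Cox4i2 and Ndufa4l2, so a peak over their own start sites was not examined. At Cox6a2, the heart and skeletal muscle counterpart of Cox6a1, covered length was 173, 196 and 0 bp in the DTR libraries and 176, 153 and 0 bp in the WT libraries. Its only region, 203 bp wide (chromosome 7, 128204867 to 128205069), was thus missing from 1 library of each group. Its counterpart Cox6a1 had 1199, 1234 and 1166 bp in DTR and 1210, 1223 and 1135 bp in WT. Cox7a1 was open over a shorter stretch than its counterpart Cox7a2, with 560, 551 and 649 bp in DTR and 608, 543 and 539 bp in WT, against 997, 1119 and 1274 bp and 1028, 959 and 940 bp. At Cox4i2 the values were 1300, 1103 and 1113 bp in DTR and 979, 1330 and 1159 bp in WT. All of these lay below those of Cox4i1 (1399, 1415 and 1415 bp, and 1420, 1410 and 1372 bp). The groups overlapped at all of these except Cox6b2, described below. An open region within 1 kb of a gene does not show that the gene is transcribed.

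**Figure D2:**
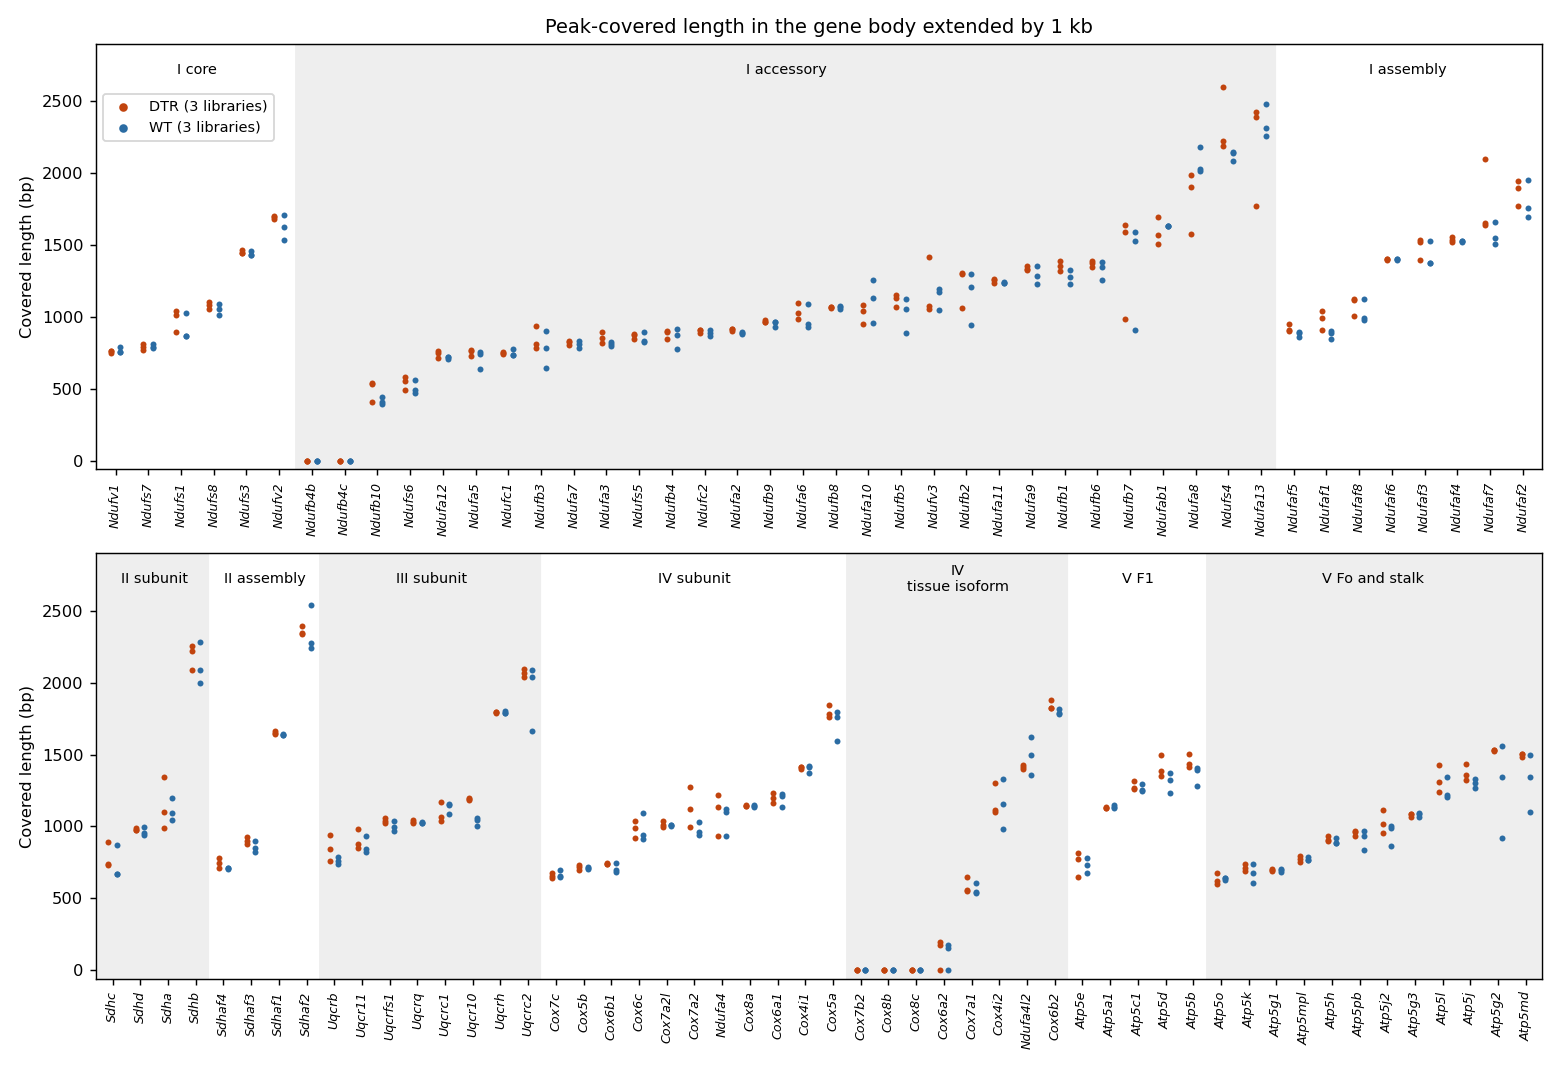
Covered length in base pairs (y axis) at the genes reported here (x axis), grouped by role and ordered by mean within a role, with 1 point per library. Points of the 3 DTR and 3 WT libraries lie close together at most genes, and Ndufb4b, Ndufb4c, Cox7b2, Cox8b and Cox8c are at 0 in every library.

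Most members were open at 1 place, the start of the gene. The members' windows held 141 merged regions (peaks of the 6 libraries joined where they overlap or touch), and 127 of these (90.1%) had a peak in every library, against 75.9% of the regions at all genes. In 58 members the window held 1 region, in 24 it held 2, in 6 it held 3 and in 4 it held more, up to 5 at Ndufaf2. The regions found in all libraries had a median width of 922 bp and the 14 others one of 190 bp, none over 426 bp. Of the 84 start sites, 81 lay under a peak in all 6 libraries (96.4%) and 3 in none (those of Cox7b2, Cox8b and Ndufb4b). Over all genes the share was 52.9%, and it was 2.59% after the sites had been moved by 5 kb, and the table was therefore used with the lists although they name no build.

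Start-site peaks of the members had higher median fold percentiles and smaller median widths than those over all genes. Within its own list, the median member peak stood between percentiles 87.9 and 89.1 of the authors' fold enrichment, depending on the library, whereas the median over all genes with a start-site peak stood between 72.7 and 74.7. Their median width was 862 to 951 bp, against 974 to 1066 bp over all genes. Among the members, the highest mean percentile of fold belonged to Cox7c, a small complex IV subunit, which stood at 99.7, 99.7 and 99.9 in the DTR lists and at 99.5, 99.6 and 99.7 in the WT lists. Sdhaf4, an assembly factor for the flavoprotein subunit of complex II, followed at 99.8, 99.5 and 99.6 in the DTR lists and 99.8, 99.1 and 99.6 in the WT lists. The lowest was Ndufb10, an accessory subunit of complex I, at percentiles 23.1, 31.9 and 21.3 in DTR and 25.9, 34.1 and 32.0 in WT. These folds are the authors' own and only place a peak within its list.

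The most covered members were Sdhaf2, Ndufa13, Ndufs4, Sdhb and Uqcrc2, with means over 6 libraries of 2357, 2274, 2233, 2155 and 2001 bp. Their windows held 2 or 3 regions, each with a peak in every library. The least covered of those open in all libraries were Ndufb10 (455 bp), Ndufs6 (526 bp), Cox7a1 (575 bp), Atp5o (634 bp, the oligomycin-sensitivity subunit) and Cox7c (664 bp), each with 1 region. The median over the 92 members with any covered length was 1070 bp, against 1456 bp over 15275 genes.

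Many members had a neighbour that started nearby upstream and was transcribed the other way. At 27 of 84 start sites (32.1%) another gene started on the opposite strand within 1000 bp upstream, against 12.6% over all autosomal protein-coding genes. The share among open promoters alone was not computed, and a gene with 2 listed start sites enters once for each. Atp5j, a stalk subunit of ATP synthase, faced Gabpa, the gene of the DNA-binding subunit of GABP, at 148 bp. Sdhd, a membrane anchor of complex II, faced Timm8b, a mitochondrial import gene, at 52 bp, and Ndufb5 faced Mrpl47, a mitochondrial ribosome gene, at 308 bp. Sdha faced Ccdc127 at 77 bp, Ndufs3 faced Kbtbd4 at 19 bp, and the 2 starts of Ndufa7 faced Rps28, a ribosomal protein gene, at 10 and 83 bp. Peaks with such a neighbour had a median width of 1014 bp and reached 538 bp upstream and 435 bp downstream, while the 54 others had 875, 409 and 442 bp. The windows of 57 members (58.8%) reached another protein-coding gene, against 32.5% of all genes, so part of the covered length may belong to that gene.

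**Figure D3:**
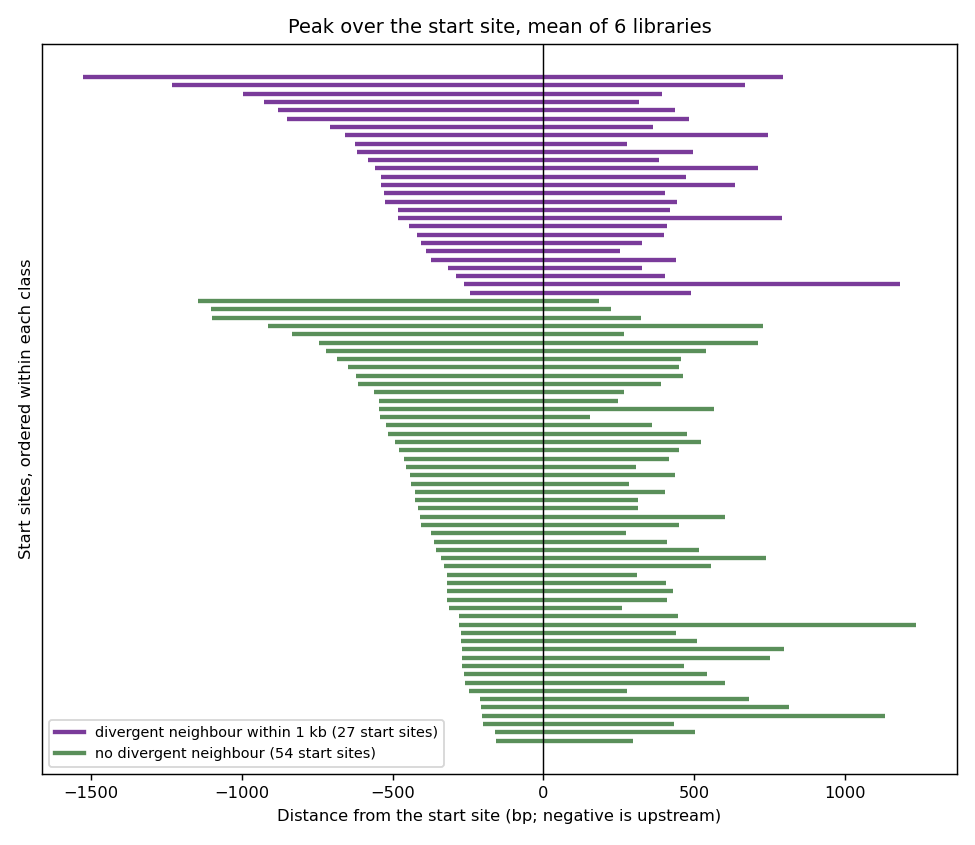
Extent of the peak over each of 81 start sites (lines, mean of 6 libraries) in base pairs from the site (x axis, negative upstream), split by whether another gene starts on the opposite strand within 1 kb upstream. Lines with such a neighbour reach a median of 538 bp upstream, and the others 409 bp.

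The libraries themselves differed before any gene was compared. They held 77867 to 84029 peaks that covered 43.8 to 50.1 Mb, with every DTR list longer and covering more than every WT list. WT library 2 covered least, and WT library 1 (47.7 Mb) came close to DTR library 2 (48.1 Mb). All 12 monocyte marker genes had a peak in every library, as did 4 of 4 B cell, 3 of 6 T and NK cell, 2 of 6 neutrophil, 4 of 5 erythroid, 5 of 6 megakaryocyte and platelet and 1 of 4 mast cell and basophil markers. Among those without any peak were Cd8a, Ncr1, Elane, Ngp, Retnlg, Hba-a1, Cpa3, Mcpt8 and Ms4a2. The megakaryocyte and platelet markers covered 5.32 to 5.42 kb in DTR and 4.78 to 5.09 kb in WT. In that list only Gp6 was higher in every DTR library, beside 17.5% of all genes, and Pf4 had a log2 difference of −0.0001. The groups overlapped in every other list. Monocyte markers covered 42.2 to 44.3 and 36.4 to 42.3 kb, and B cell markers 4.1 to 4.6 and 3.5 to 4.4 kb. T and NK cell markers had 2.97 to 3.14 and 2.99 to 3.15 kb. Neutrophil markers had 3.48 to 3.78 and 3.18 to 3.69 kb. Erythroid markers had 2.62 to 2.88 and 2.43 to 2.71 kb, and those of mast cells and basophils 1.01 to 1.62 and 0.98 to 1.25 kb. The part of these markers in the results was not tested, and in bulk libraries fewer cells of a type and less open chromatin per cell cannot be told apart.

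Between DTR and WT, the members differed little, and 0 of 92 passed the test in either direction. The test was limma on log2(covered bp + 100), fitted over all 15275 autosomal protein-coding genes with covered length in at least 1 library, with Benjamini-Hochberg adjustment over all of them and a threshold of 0.05. Over all genes it called 35 higher in DTR (0.229%) and 4 lower (0.0262%). At an unadjusted p under 0.05 there were 2 members, Uqcr10 and Ndufaf1, against 10.5% of all genes. The median log2 difference of the members was 0.04 and that of all genes 0.06. A positive difference was seen in 78 members (84.8%) and in 79.8% of all genes. In sum the members covered 109, 105 and 109 kb in the DTR libraries and 108, 101 and 104 kb in the WT libraries, and the groups overlapped. As a share of all covered length the DTR libraries had 0.217%, 0.219% and 0.218%, all below the WT libraries, whose shares were 0.226%, 0.230% and 0.225%. The direction of the small differences therefore turned with the scale, as the median did, which was −0.05 for the members and −0.04 for all genes after division by each library's total covered length.

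In 9 of 92 members (9.78%) every DTR library had more covered length than every WT library, and in 1 the reverse held. Over all genes tested the shares were 17.5% and 0.969%, so the members lay below the genome in the first and close to it in the second. After division by total covered length the split was 1 higher (1.09%) and 33 lower (35.9%), against 4.39% and 19.6% of all genes. With lists cut to equal length it was 9 and 1, against 14.9% and 1.83%. Among genes covered in all libraries the background shares were 17.9% and 0.966%. Covered length varied less between replicates at the members, with a median SD of 0.06 on the log2 scale against 0.09 over all genes. The count of 9 depended on single libraries. Without WT library 1 it was 39 (42.4% of members), above the 36.9% of all genes, with 1 lower (1.09%) against 1.79%. It was 17 (18.5% of members) without DTR library 1 (24.0% of all genes) or DTR library 2 (31.1%). The count of 1 became 3 (3.26% of members) without DTR library 1 (2.79% of all genes) or WT library 3 (2.26%). It became 2 (2.17% of members) without DTR library 3 (2.53% of all genes) or WT library 2 (3.96%). With fewer libraries in a group, separation is easier by construction.

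**Figure D4:**
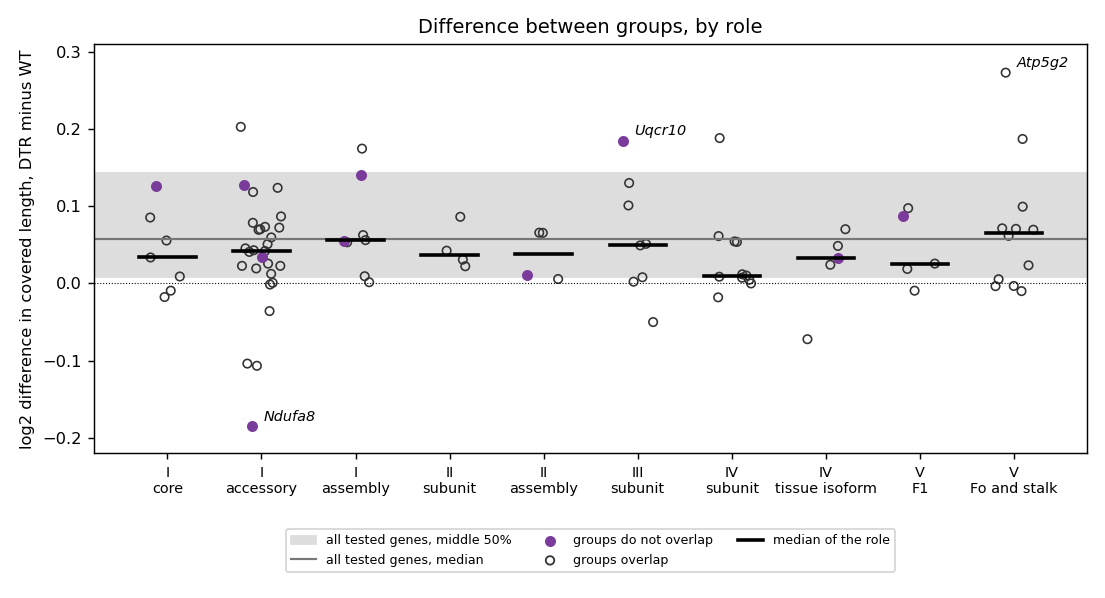
log2 difference in covered length, DTR minus WT (y axis), of the 92 members with any covered length, by role (x axis), with filled points where the groups do not overlap and a bar at the median of each role. The grey band and line give the middle 50% and the median (0.06) of all 15275 genes, and 78 of the 92 points lie above 0.

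Within complex I, the flavin and the iron-sulfur clusters are held by some of the core subunits. The core subunit genes named here had log2 differences from −0.02 to 0.09. Ndufs3 was nearly constant, at 1448, 1446 and 1464 bp in DTR and 1461, 1435 and 1433 bp in WT. Ndufv1, which binds NADH, had 763, 763 and 750 bp and 794, 758 and 756 bp, and Ndufs7 had 810, 770 and 792 bp and 791, 810 and 788 bp. At Ndufs1 the values were 1016, 897 and 1041 bp in DTR and 1031, 872 and 867 bp in WT. Ndufs8 had 1058, 1085 and 1104 bp against 1092, 1057 and 1017 bp, and Ndufv2 had 1695, 1682 and 1702 bp against 1712, 1539 and 1629 bp. The groups overlapped at each of these core genes.

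Among the 30 accessory subunit genes of complex I, Ndufs4 and Ndufa2 were higher in every DTR library and Ndufa8 was lower. The shares over all genes were 17.5% and 0.969%. Ndufs4, whose loss causes an encephalopathy resembling Leigh syndrome in mice, covered 2599, 2191 and 2228 bp in DTR and 2142, 2089 and 2151 bp in WT (log2 difference 0.13, SE 0.07, limma adjusted p = 0.558). Without DTR library 1 the difference was 0.05. Ndufa2 covered 903, 915 and 918 bp in DTR and 895, 887 and 883 bp in WT, a difference of 0.03. Ndufa8, a subunit of the intermembrane space side, covered 1902, 1986 and 1576 bp in DTR and 2016, 2181 and 2030 bp in WT (log2 difference −0.18, SE 0.09, limma adjusted p = 0.527). It was −0.09 without DTR library 3 and −0.05 with windows of 5 kb. Its start-site peak was alike in all libraries, reaching 530 to 542 bp upstream and 631 to 643 bp downstream. The rest of its covered length lay in 3 other regions of the window, one found in WT library 2 alone and one in all libraries but DTR library 3. The start-site peak is shared with Morn5, which starts 135 bp upstream on the other strand. Ndufb10 had 545, 407 and 535 bp in DTR and 445, 407 and 393 bp in WT (log2 difference 0.20, SE 0.11; 0.31 without DTR library 2), with overlapping groups. Ndufa13, also known as GRIM-19, covered 2425, 1770 and 2393 bp in DTR and 2314, 2258 and 2481 bp in WT, a difference of −0.11 that rested on DTR library 2 and was 0.035 without it. Ndufa10 covered 1041, 955 and 1084 bp against 1259, 1131 and 957 bp, a difference of −0.10, also with overlap. That value was −0.02 without WT library 1 and −0.20 without WT library 3, and it turned to 0.03 with windows of 5 kb. Ndufb7 was short in replicate 2 of both groups, at 1594, 990 and 1640 bp in DTR and 1593, 908 and 1527 bp in WT.

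The assembly factor genes of complex I all had positive differences, from 0.00 to 0.17, and their groups separated at 2 of 8. Over all genes, 79.8% had a positive difference and 17.5% were higher in every DTR library. Ndufaf1, which helps build the membrane arm, covered 911, 991 and 1042 bp in DTR and 850, 889 and 902 bp in WT (log2 difference 0.14, SE 0.05, unadjusted p = 0.0493, limma adjusted p = 0.475). Over the gene body without extension its difference was −0.01. Ndufaf5 covered 907, 903 and 955 bp in DTR and 890, 862 and 897 bp in WT (0.06, SE 0.03; 0.03 without DTR library 3). Ndufaf7, a methyltransferase needed for complex I assembly, had 1639, 1658 and 2100 bp against 1660, 1510 and 1551 bp. Its DTR library 3 stood above all others, with a further region of 426 bp found only there. Ndufaf6 was constant within 10 bp, from 1398 to 1406 bp over the 6 libraries.

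Complex II, succinate dehydrogenase, links the chain to the citric acid cycle. Its catalytic gene Sdha covered 989, 1097 and 1347 bp in DTR and 1195, 1093 and 1045 bp in WT. Sdhb, with the iron-sulfur clusters, had 2087, 2253 and 2222 bp against 2282, 2000 and 2087 bp. The membrane anchors followed, Sdhc with 730, 737 and 890 bp against 872, 669 and 669 bp and Sdhd with 973, 988 and 978 bp against 957, 993 and 940 bp. The groups overlapped at all 4 subunit genes, whose log2 differences were 0.02 to 0.09. Sdhaf1 covered 1650, 1643 and 1662 bp in DTR and 1638, 1635 and 1641 bp in WT, so its groups were apart by as little as 2 bp, and its log2 difference was 0.01.

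In complex III, Uqcr10 had the smallest p of all members. It encodes a small accessory subunit and covered 1193, 1199 and 1185 bp in DTR and 1060, 1005 and 1047 bp in WT. The groups did not overlap, and the mean was 1192 ± 7.02 bp in DTR and 1037 ± 28.7 bp in WT (SD, n = 3 each; exact two-sided permutation p = 0.1, the smallest this design allows). The log2 difference was 0.18 with an SE of 0.03 (unadjusted p = 0.00153, limma adjusted p = 0.168). The covered length came from 1 peak, over the start site, that reached further on both sides. It extended 663, 670 and 655 bp upstream in DTR and 605, 550 and 562 bp in WT, and 529, 528 and 529 bp downstream in DTR and 454, 454 and 484 bp in WT. The gene Zmat5 starts 312 bp upstream on the other strand, under the same peak. The core genes of this complex did not separate. Uqcrfs1, the Rieske iron-sulfur protein, covered 1037, 1024 and 1059 bp against 1040, 970 and 996 bp, and Uqcrc1 had 1171, 1039 and 1064 bp against 1088, 1157 and 1152 bp. Uqcrc2 had 2042, 2070 and 2096 bp against 2086, 1667 and 2042 bp, low in WT library 2.

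At complex IV the broadly used genes had a median log2 difference of 0.01, and 0 of 11 separated the groups. Over all genes, 17.5% were higher and 0.969% lower in every DTR library. Cox6b1 covered 736, 747 and 738 bp in DTR and 747, 684 and 698 bp in WT, and Ndufa4 covered 1134, 931 and 1221 bp against 1119, 930 and 1097 bp. Cox4i1 and Cox8a were steadier, the latter at 1141, 1140 and 1146 bp in DTR and 1141, 1148 and 1138 bp in WT. Cox5a covered 1783, 1759 and 1843 bp against 1595, 1797 and 1762 bp, and Cox5b covered 720, 695 and 731 bp against 720, 705 and 708 bp. Cox7a2 had the largest difference, 0.19 (SE 0.09, limma adjusted p = 0.511), with overlap between DTR library 1 and WT library 1. It was 0.11 without DTR library 3 and 0.08 when peaks had to overlap the window by 200 bp. A region of 149 bp inside it (chromosome 9, 79767490 to 79767638) had a peak in DTR libraries 2 and 3, with the authors' folds of 4.89 and 5.08, and in no WT library. Among the tissue isoforms, Cox6b2 was higher in each DTR library, at 1876, 1823 and 1822 bp against 1814, 1784 and 1790 bp, a log2 difference of 0.03 (SE 0.03; 0.02 without DTR library 1). Ndufa4l2 covered 1428, 1412 and 1396 bp in DTR and 1620, 1361 and 1498 bp in WT, with overlap and a difference of −0.07, which was −0.02 without WT library 1 and 0.05 with windows of 5 kb.

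Complex V members had a median log2 difference of 0.06. In the F1 head, the catalytic beta subunit gene Atp5b covered 1501, 1414 and 1431 bp in DTR and 1389, 1282 and 1403 bp in WT, without overlap (0.09, SE 0.05, limma adjusted p = 0.543). The difference was 0.05 without WT library 2, 0.03 with windows of 5 kb and 0.18 without extension. The alpha subunit gene Atp5a1 was flat, at 1127, 1130 and 1132 bp against 1147, 1136 and 1130 bp, as was the gamma subunit gene Atp5c1, at 1258, 1270 and 1318 bp against 1293, 1253 and 1246 bp. Of the 3 genes for the proton-carrying c ring, Atp5g1 had 693, 704 and 698 bp against 704, 698 and 684 bp and Atp5g3 had 1083, 1068 and 1086 bp against 1093, 1067 and 1085 bp. Atp5g2 had the largest difference of all members, 0.27 (SE 0.18, limma adjusted p = 0.618), with 1529, 1525 and 1530 bp in DTR and 1557, 921 and 1346 bp in WT. WT library 1 lay above all DTR libraries there, and WT library 2, whose start-site peak reached 458 bp upstream in place of 863 to 927 bp in the others, set the mean. The difference was 0.07 without WT library 2 and 0.42 without WT library 1. Atp5md was low in the same library, with 1484, 1503 and 1501 bp in DTR and 1496, 1098 and 1341 bp in WT, and its difference of 0.19 was 0.07 without it. WT library 2 held the lowest value of the 6 libraries at 42 of the 91 members open in all of them.

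**Figure D5:**
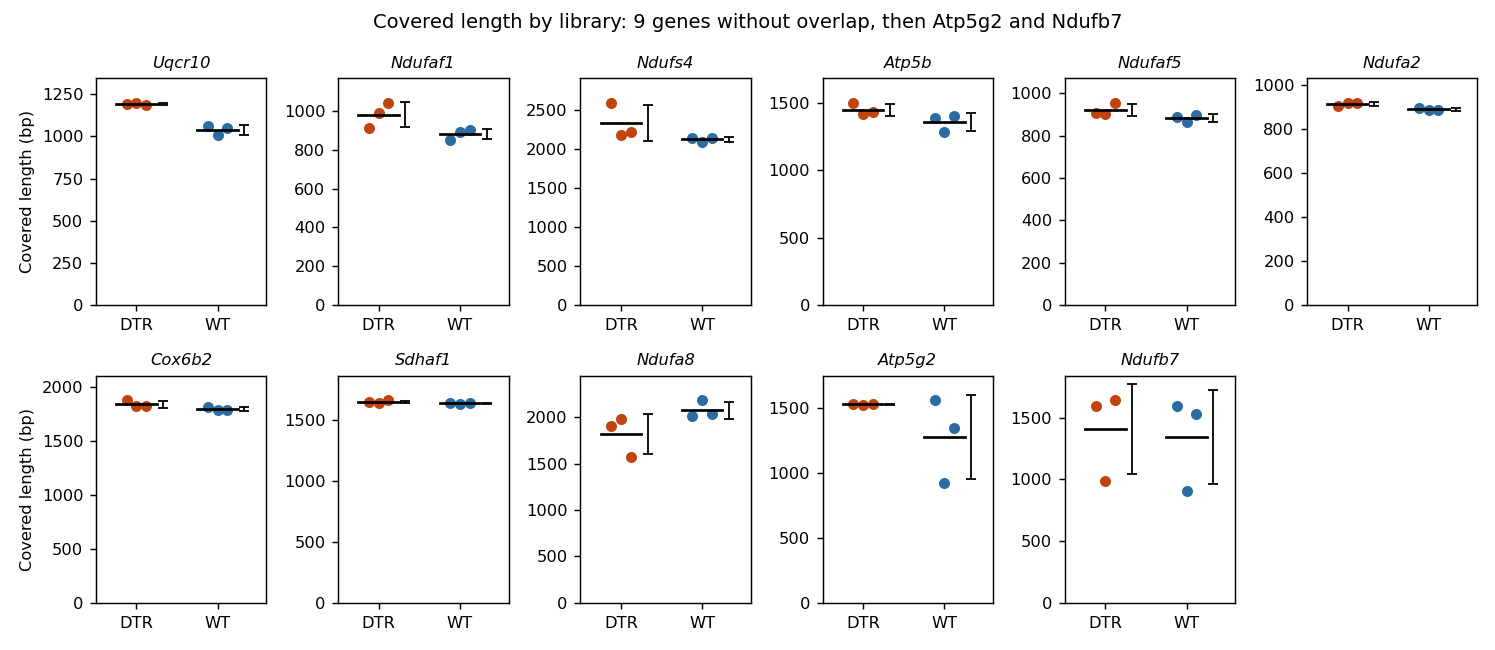
Covered length in base pairs (y axes, from 0) of 11 genes in the 3 DTR and 3 WT libraries (x axes); points are libraries, bars are means and error bars are SDs over 3 libraries. The first 9 genes are without overlap between the groups, and in Atp5g2 and Ndufb7 low values in replicate 2 (921 bp in WT for Atp5g2, 990 bp in DTR and 908 bp in WT for Ndufb7) set the spread.

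No member had a region present in all libraries of 1 group and absent from the other. Such regions were found at 1.78% of all genes for DTR and at 0.252% for WT. Of the 14 regions missing from some library, 1 at Ndufa10 (chromosome 1, 92453797 to 92454036) had a peak in WT libraries 1 and 2, with folds of 3.12 and 3.72, and in no DTR library. That region counts as WT-only without WT library 3, and the region of Cox7a2 counts as DTR-only without DTR library 1.

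Among other genes of the pathway, 1 regulator passed the test. Of 38 assembly genes outside the rule (such as Surf1, Sco1, Bcs1l and Tmem70), 38 were open in all libraries, 0 passed the test, and 10 were higher in every DTR library with 0 lower, where the shares over all genes were 17.5% and 0.969%. The citric acid cycle gave 12 open of 12, 0 past the test, 3 higher and 0 lower, beside the same 17.5% and 0.969%. The cytochrome c gene Cycs, and Cyc1, which encodes cytochrome c1 of complex III but lies outside the symbol rule, were open in all libraries and neither separated the groups. The testis cytochrome c gene Cyct had no peak. All 18 regulators of mitochondrial gene expression were open in every library, 4 were higher in each DTR library and 0 lower (17.5% and 0.969% over all genes), and 1 passed the test. This was Esrra, the gene of estrogen-related receptor alpha, which covered 1922, 1865 and 1893 bp in DTR and 1450, 1444 and 1433 bp in WT (log2 difference 0.37, SE 0.03, limma adjusted p = 0.0191). The groups were far apart, and the difference lay in 1 peak on chromosome 19 that began at 6921290, 6921290 and 6921262 in DTR and at 6921694, 6921697 and 6921680 in WT. Its other edge lay between 6922430 and 6922487 in all 6 libraries. The adjusted p was 0.237 after division by total covered length and 0.101 with windows of 5 kb. It was 0.0679, 0.0523 and 0.0915 without DTR library 1, 2 or 3, and 0.0671 and 0.0645 without WT library 2 or 3. The window of Esrra also reaches Catsperz, Prdx5 and Trmt112. Nrf1, Gabpa, Yy1, Tfam and Ppargc1a had log2 differences of 0.15, 0.07, 0.04, 0.05 and 0.21, and limma adjusted p-values of 0.719, 0.562, 0.846, 0.688 and 0.506.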

How the data were processed

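ATAC-seq was read from 6 deposited lists of broad peaks, 1 per library, with 3 DTR and 3 WT libraries grouped by sample title. The submitters' processing notes name MACS2, Bowtie2 (version 2.4.4), Bowtie and fastp. The sources used here do not give their settings, the genome build or any shift of reads for the transposase. Each deposited line holds a score, a fold enrichment (ratio) and the −log10 p-value and −log10 q-value that the authors' peak caller wrote. Read counts are not in the lists, so the depth behind a value is unknown. Gene bodies and promoters came from RefSeq tables of GRCm38.p6.

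Covered length per gene was computed with Python 3.11.15 and tested with limma 3.58.1 in R 4.3.3. The fit was tested on simulated data with the spread of all genes. It recovered 18 of 100 genes changed by 0.25 on the log2 scale and 75 of 100 changed by 1. The members varied less between replicates (median SD 0.06 against 0.09), so these rates need not hold for them, and their own spread was not simulated. That 0 members passed does not show that differences near 0.25 were absent. Named genes were members without a peak in some library, up to 5 per direction with the largest difference, the 5 most and 5 least covered, those with a group-only region, and core subunits and isoform pairs fixed by name. Sdhaf4, Ndufaf6, Ndufaf7, Ndufb7 and members without overlap between groups were added after their values were seen. Some genes enter the counts but are not reported here by name. The members, lists and tests were chosen with earlier results of these data known. Alternatives were lists of equal length, a −log10 q of at least 5, other windows, overlaps, pseudocounts and filters, scaling, a replicate block, another limma setting and each library left out.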

Additional observations from a re-analysis of the deposited data

How the results depend on the processing

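Under all 17 alternatives, limma called 0 members higher and 0 lower. Members with a peak in all libraries numbered 91 to 93 over the alternatives that bear on it, and the median difference stayed between 0.02 and 0.07 on the log2 scale except after division by total covered length, where it was −0.054. That scaling also gave 1 member higher in all DTR libraries and 33 lower (35.9%, against 19.6% of all genes). Members lower in all DTR libraries numbered 0 at a −log10 q of at least 5 (0.818% of all genes) and 0 with windows of 5 kb (0.91%). Leaving out 1 library gave 10 to 39 members higher (10.9% to 42.4%) and 1 to 3 lower (1.09% to 3.26%). Over all genes the shares were 20.4% to 36.9% and 1.69% to 3.96%. The members then had 0 to 1 DTR-only regions and 0 to 1 WT-only regions. All genes had 575 to 727 and 96 to 176 of them. For single genes, the sign turned after that scaling at Atp5b (−0.011), Cox6b2 (−0.067), Ndufa2 (−0.061), Ndufaf5 (−0.039) and Sdhaf1 (−0.088). It turned with windows of 5 kb at Ndufa10 (0.027) and Ndufa4l2 (0.053), without extension at Ndufaf1 (−0.0096) and without DTR library 2 at Ndufa13, whose differences with 1 library left out ran from −0.182 to 0.035. The cause was not tested. Libraries of the same number did not deviate together (correlations −0.0297, 0.0632 and −0.0534 over 14600 genes). With a replicate block, 0 members were called, the median difference was 0.04, the genes called over the genome fell from 35 and 4 to 2 and 0, and the adjusted p of Esrra was 0.345. Genes called over the genome numbered 69 higher at a −log10 q of at least 5 and 94 without WT library 1. They numbered 11 with genes covered in all libraries, 16 after scaling and 17 with the trend and robust setting; lower ones ranged from 0 to 12 over the alternatives. Depth is unknown, so an absent or narrower peak cannot be told from fewer reads.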

Other observations

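The X-linked genes of the chain were open in all libraries, and the mitochondrial genome held peaks in each. The 3 X-linked genes whose symbols match the rule were Ndufa1 (1282, 1293 and 1256 bp covered in DTR and 1282, 1283 and 1257 bp in WT), Ndufb11 (1161, 1161 and 1272 bp, and 1181, 1123 and 1012 bp) and Cox7b (396, 380 and 380 bp, and 375, 337 and 366 bp). Cox7b was higher in every DTR library, and the groups overlapped at the others. The mitochondrial genome, which encodes the remaining subunits, held 2 peaks in each library, which covered 11580, 11586 and 11553 bp in DTR and 11559, 11566 and 11571 bp in WT, with overlapping groups. These peaks were not assigned to single mitochondrial genes.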
